A study of Mus musculus with 10 samples.

Results

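Antigen presentation by the major histocompatibility complex was followed through 10 transcripts in livers of NML-KO mice and of wild-type (WT) mice. The genes were H2-Aa, H2-Ab1, H2-Eb1, Cd74, H2-DMa and Ciita of the class II pathway and H2-K1, H2-D1, B2m and Tapbp of the class I pathway, chosen by name among 19935 measured genes. Of these 10, 8 had a probe set of their own, while H2-K1 and H2-D1 were read only by 2 probe sets that list both genes. The NML-KO mice lack nucleomethylin, a nucleolar protein encoded by Rrp8, and the WT mice are their controls. Total RNA was taken from the livers of 12-week-old animals, with 5 NML-KO and 5 WT livers and 1 array per liver. The labels give neither strain, sex, litter nor the part of Rrp8 that was targeted. All values are log2 intensities of the deposited tables, and a difference of 1 is a doubling of the intensity.

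Class I molecules, a heavy chain such as H2-K or H2-D bound to beta-2-microglobulin, show peptides from inside the cell to CD8 T cells and are made by nearly all cells. Class II molecules, pairs of an alpha and a beta chain, show peptides taken up from outside to CD4 T cells and are made mainly by dendritic cells, B cells and macrophages, which in liver include Kupffer cells. Class II genes are switched on by the coactivator CIITA, which interferon gamma induces and which works through factors bound to X and Y boxes near the gene starts. Class I genes are controlled by the related coactivator NLRC5, by NF-kappa B and by interferon regulatory factors. In whole liver RNA, fewer cells of a type and less RNA per cell cannot be told apart.

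The promoters of H2-Aa, H2-Eb1, H2-K1, H2-D1 and H2-Q10 are shown because class II and class I gene control is read from such windows and the values of these genes or of their shared probe sets are described here. Each sequence is from RefSeq (build GRCm38.p6), 5′ to 3′ on the gene's strand, with 250 bases before the annotated start and 50 after it, and capitals mark the motifs searched. These were the X box core GCAACT, the Y box CTGATTGG, the kappa B core GGGATTCCC, the interferon response core TTTCACTT and the cAMP response core TGACG, each read on both strands. The windows are chr17:34287774-34288073 (minus strand) for H2-Aa, chr17:34305617-34305916 (plus) for H2-Eb1, chr17:34000284-34000583 (minus) for H2-K1, chr17:35262844-35263143 (plus) for H2-D1 and chr17:35469839-35470138 (plus) for H2-Q10.
H2-Aa: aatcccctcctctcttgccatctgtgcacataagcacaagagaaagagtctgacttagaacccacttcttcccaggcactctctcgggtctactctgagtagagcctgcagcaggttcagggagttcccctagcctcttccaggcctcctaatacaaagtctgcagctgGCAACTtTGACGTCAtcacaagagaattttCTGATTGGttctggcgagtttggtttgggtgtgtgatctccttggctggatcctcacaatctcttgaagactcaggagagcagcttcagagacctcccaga
H2-Eb1: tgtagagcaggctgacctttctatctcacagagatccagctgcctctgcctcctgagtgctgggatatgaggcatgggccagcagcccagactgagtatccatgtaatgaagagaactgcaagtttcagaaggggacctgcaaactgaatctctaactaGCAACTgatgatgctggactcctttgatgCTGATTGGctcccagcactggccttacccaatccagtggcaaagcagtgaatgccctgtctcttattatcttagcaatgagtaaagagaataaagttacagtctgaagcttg
H2-K1: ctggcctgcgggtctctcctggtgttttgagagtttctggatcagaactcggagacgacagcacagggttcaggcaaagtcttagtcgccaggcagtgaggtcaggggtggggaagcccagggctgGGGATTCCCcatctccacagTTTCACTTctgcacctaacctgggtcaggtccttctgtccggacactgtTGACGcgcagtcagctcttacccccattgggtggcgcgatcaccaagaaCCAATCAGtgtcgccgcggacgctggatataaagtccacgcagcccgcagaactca
H2-D1: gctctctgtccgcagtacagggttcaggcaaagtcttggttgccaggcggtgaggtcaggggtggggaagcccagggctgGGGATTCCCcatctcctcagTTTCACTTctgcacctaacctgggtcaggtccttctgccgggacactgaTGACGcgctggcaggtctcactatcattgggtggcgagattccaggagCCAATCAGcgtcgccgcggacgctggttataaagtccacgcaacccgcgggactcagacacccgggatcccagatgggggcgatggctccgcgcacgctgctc
H2-Q10: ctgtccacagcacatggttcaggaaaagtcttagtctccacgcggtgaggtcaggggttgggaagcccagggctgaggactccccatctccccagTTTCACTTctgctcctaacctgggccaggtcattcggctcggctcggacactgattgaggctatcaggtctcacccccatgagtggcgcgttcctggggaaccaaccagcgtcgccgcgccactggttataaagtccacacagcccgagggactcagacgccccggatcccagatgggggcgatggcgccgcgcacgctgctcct

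In the class II promoters the X box core began 81 bases before the start of H2-Aa and 91 bases before that of H2-Eb1. The Y box followed 51 and 62 bases before these starts. In H2-Aa, TGACG and its reverse complement CGTCA overlapped between the X and Y boxes, 74 and 71 bases before the start. The class I promoters held the kappa B core, 124 bases before the start shown for H2-K1 and 170 before that of H2-D1. The interferon response core lay 104 and 150 bases before these starts. TGACG followed at 55 and 101 bases, and CCAATCAG, the reverse complement of the Y box, at 6 and 53 bases. H2-Q10, a class I gene whose secreted product is made by hepatocytes, held only the interferon response core, 155 bases before its start. Among 32851 RefSeq promoter windows of 300 bases, 10.9% held the X box core, 4.1% the Y box, 0.353% the kappa B core, 1.6% the interferon response core and 20.8% the cAMP response core, each in either strand. RefSeq lists a further start of H2-K1, at which the same motifs are found. Windows of 7 of the 10 genes were searched. Cd74, on chromosome 18, was left out of the search, and no window was found for H2-Ab1 and Ciita. In the window of B2m TGACG lay 78 bases before the start and CGTCA 45 bases after it. The windows of H2-DMa and Tapbp held none of these motifs. A match is a run of letters and was not shown to be bound.

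The livers were also sorted into sets, because a difference found within both genotypes ran through them. The main comparison of the genotypes did not have the set as a term. Dbp, a clock-controlled transcription factor gene, had log2 values of 9.68, 9.71 and 9.71 in NML-KO 1, 2 and 3 and of 10.23 and 9.87 in WT 1 and 2. These 5 livers are called Dbp-high. It had 6.60 and 6.47 in NML-KO 4 and 5 and 6.27, 6.58 and 6.20 in WT 3, 4 and 5, called Dbp-low. The split was made from the measured level of Dbp at a log2 value of 8, and it is no label of the study. Time of day, handling and other differences between the sets cannot be told apart. Rrp8 had 6.65 to 7.19 in NML-KO livers and 7.65 to 7.90 in WT livers, with no overlap and an adjusted p of 0.109 (limma). The array medians were alike, from 62.5 to 66.7 in linear intensity, and precision is limited by how many arrays there are.

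The class II genes differed more between livers of the same genotype than between the genotypes. NML-KO 4 and WT 2 had the highest values of H2-Aa, H2-Ab1, H2-Eb1, Cd74, H2-DMa, Ciita and Tapbp, that is of 7 of the 8 genes with their own probe set. NML-KO 4 is a Dbp-low and WT 2 a Dbp-high liver, so each genotype and each set held 1 of the pair.

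H2-Aa encodes the alpha chain of the class II molecule I-A. It had log2 values of 7.66, 7.85, 7.89, 9.17 and 7.99 in NML-KO livers 1 to 5, against 7.56, 9.23, 7.90, 8.47 and 7.66 in WT livers 1 to 5. In both genotypes 1 liver lay above 9 and the groups overlapped over nearly their whole range. H2-Ab1, the beta chain that pairs with it, had 7.40, 8.07, 7.78, 9.33 and 8.20 in NML-KO livers, against 7.76, 9.47, 8.23, 8.67 and 8.11 in WT livers. The same livers were high, and WT 4 came next to them for both chains. H2-Eb1, the beta chain of the class II molecule I-E, had 7.60, 8.18, 7.93, 9.02 and 8.13 in NML-KO livers, against 7.88, 9.47, 8.17, 8.44 and 7.91 in WT livers.

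Cd74, the invariant chain that blocks the peptide groove and guides class II molecules to endosomes, had 7.83, 8.03, 8.46, 9.87 and 8.91 in NML-KO livers, against 8.08, 9.96, 8.82, 9.23 and 8.82 in WT livers. It spanned the widest range of the 8 genes, 2.13 on the log2 scale or 4.39-fold from the lowest to the highest liver. H2-DMa, a chain of the DM molecule that exchanges the invariant chain fragment for peptide, had 5.85, 6.19, 6.02, 7.56 and 6.50 in NML-KO livers, against 6.04, 6.93, 6.55, 6.92 and 6.69 in WT livers. NML-KO 4 stood above all others there, while WT 2 was level with WT 4. Ciita, the coactivator of the class II genes, had 5.89, 5.80, 5.77, 6.19 and 5.76 in NML-KO livers, against 5.71, 6.13, 5.93, 5.96 and 5.69 in WT livers. It spanned 0.50, close to the median range of 0.47 over all probe sets, and its highest values were again in NML-KO 4 and WT 2.

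**Figure D1:**
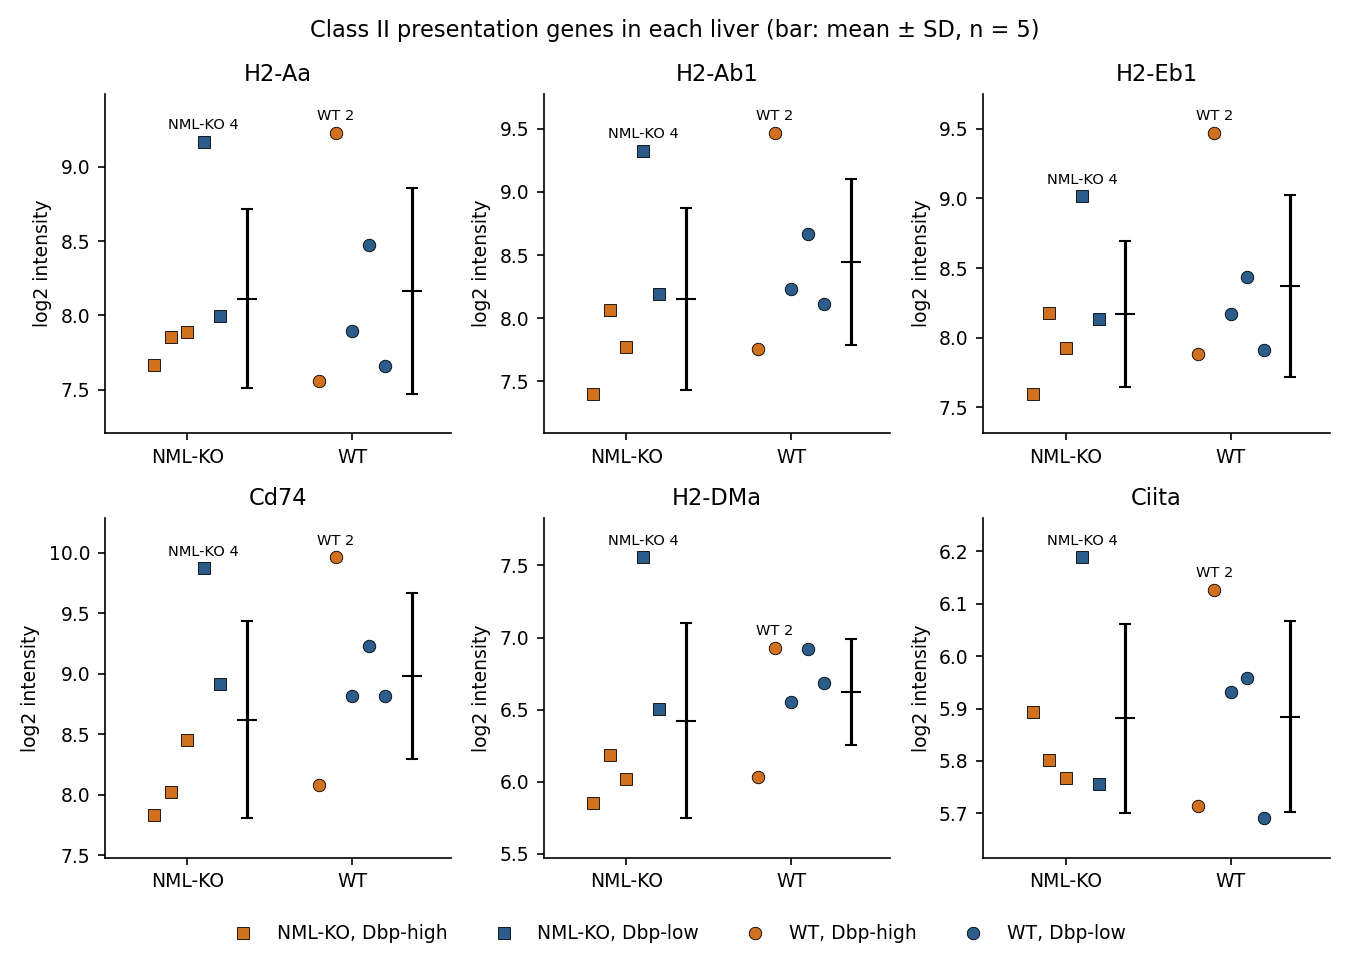
Log2 intensity of 6 class II genes in each liver, NML-KO left and WT right, with the mean and SD (n = 5) as a bar beside the points, colour for the Dbp set and a symbol for the genotype. NML-KO 4 and WT 2 are labelled and are the highest livers in every panel, with H2-Ab1 at 9.33 and 9.47.

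None of these class II differences between the genotypes passed the test. Cd74 averaged 8.62 ± 0.81 in NML-KO livers and 8.98 ± 0.69 in WT livers (SD, n = 5 each), a difference of -0.36 (95% interval from -1.30 to 0.58). H2-Ab1 averaged 8.15 ± 0.72 in NML-KO livers and 8.45 ± 0.66 in WT livers, a difference of -0.30 (-1.16 to 0.56). Without NML-KO 4 these differences were -0.67 for Cd74 and -0.59 for H2-Ab1, and without WT 2 they were -0.12 and -0.041. H2-Eb1 differed by -0.21 (SE 0.33), H2-DMa by -0.20 (SE 0.31), H2-Aa by -0.05 (SE 0.36) and Ciita by -0.0025 (SE 0.11). The interval of H2-Aa ran from -0.86 to 0.76, so that neither direction is left out at this number of arrays. Over all 8 genes with their own probe set, limma's adjusted p was 0.999 for NML-KO against WT, and no genotype groups stood apart without overlap. All 8 differences were below 0, with a median of -0.19, while 53.4% of all genes were below 0 with a median of -0.0065. Among all 19935 genes, 0 (0%) passed an adjusted p of 0.05, 539 (2.7%) had an unadjusted p below it and 81 (0.406%) had genotype groups that did not overlap.

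The sign of the genotype difference turned between the sets of livers. Within Dbp-high livers, 3 NML-KO against 2 WT, all 8 genes were lower in NML-KO livers, by 0.87 for H2-Ab1, 0.92 for Cd74 and 0.59 for H2-Aa. Within Dbp-low livers, 2 NML-KO against 3 WT, all 8 were higher in NML-KO livers, by 0.42 for H2-Ab1, 0.44 for Cd74 and 0.57 for H2-Aa. B2m barely differed, by -0.0033 in the first comparison and 0.00069 in the second. Over all genes the median differences were -0.013 and -0.0060. WT 2 is in the first comparison and NML-KO 4 in the second. The difference between the sets was tested as an interaction and did not pass for any of the 8 (adjusted p from 0.765 for Tapbp to 0.998 for B2m, limma), nor for any of the 19935 genes, of which 1293 had an unadjusted p below 0.05. With the set as a term in the model the median of the 8 was -0.13.

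**Figure D2:**
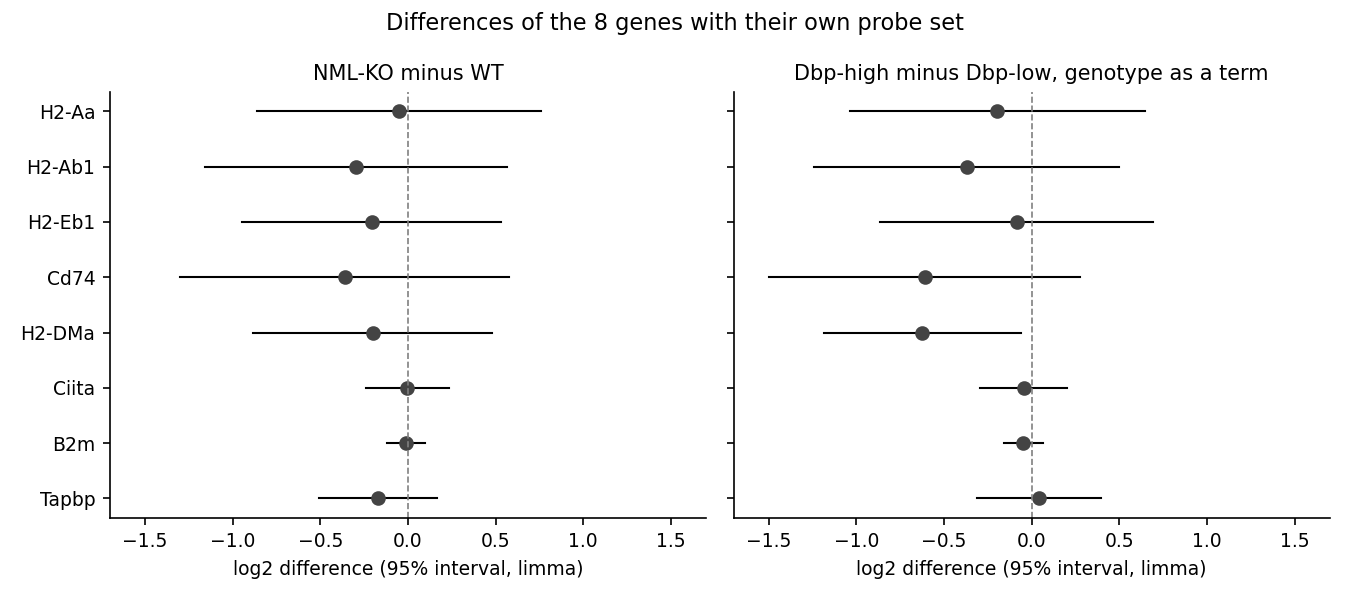
Log2 differences of the 8 genes with their own probe set, NML-KO minus WT on the left and Dbp-high minus Dbp-low with genotype as a term on the right, as points with 95% limma intervals and a dashed line at 0. The intervals of the 5 class II chain genes are wide and those of Ciita and B2m narrow; only that of H2-DMa between the Dbp sets, from -1.19 to -0.06, does not cross 0.

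Between the Dbp sets none of the 8 genes passed either, where 12.9% of all genes did (2573 of 19935) and 12.2% had sets that did not overlap. H2-DMa averaged 6.20 ± 0.42 in Dbp-high livers and 6.84 ± 0.43 in Dbp-low livers (SD, n = 5 each), a difference of -0.62 with genotype as a term (SE 0.25, adjusted p = 0.143, limma). Cd74 differed by -0.61 (SE 0.40, adjusted p = 0.366), H2-Ab1 by -0.37 (SE 0.39) and H2-Aa by -0.20 (SE 0.38). H2-Eb1, Ciita and B2m differed by less than 0.1. Both NML-KO 4 and WT 2 decided these values. Without NML-KO 4 the difference of Cd74 was -0.27 and that of H2-DMa -0.33, and within WT livers Cd74 was at 0.068. Without WT 2 Cd74 was lower in Dbp-high livers by 1.13 (adjusted p = 0.0137) and H2-DMa by 0.89 (adjusted p = 0.0274). Without both WT 2 and NML-KO 4 the differences were -0.84 (adjusted p = 0.0221) and -0.58 (adjusted p = 0.0239). These livers were picked by the same genes' values, so the p-values without them are no independent evidence. The median of the 8 was -0.14, with 7 below 0, and over all genes it was 0.024.

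The chains and their chaperones varied together from liver to liver. Over the 10 pairs of H2-Aa, H2-Ab1, H2-Eb1, Cd74 and H2-DMa, Pearson's r across the 10 livers ran from 0.786 to 0.972, and Spearman's rho from 0.709 to 0.952. Without NML-KO 4 and WT 2, r ran from 0.663 to 0.943, and with each Dbp set centred on its own mean from 0.910 to 0.996. Ciita had r = 0.902 with H2-Aa, 0.823 with H2-Eb1, 0.809 with H2-Ab1, 0.743 with Cd74 and 0.717 with H2-DMa. Without NML-KO 4 and WT 2 these were 0.610, 0.375, 0.312, 0.215 and 0.244, so the relation rests in large part on that pair. These values describe livers that share the Dbp split, and no p is given with them.

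Of all other genes, predicted ones left out, Cxcl9 had the highest correlation with the mean of H2-Aa, H2-Ab1, H2-Eb1 and Cd74 (r = 0.958 over 10 livers, 0.854 without NML-KO 4 and WT 2). Cxcl9 encodes a chemokine that interferon gamma induces. It had 7.28, 7.07, 7.58, 9.94 and 8.61 in NML-KO livers, against 7.36, 9.95, 8.17, 8.74 and 8.16 in WT livers, so NML-KO 4 and WT 2 stood apart as for the chains. Its genotype difference was -0.38 (SE 0.60) and did not pass the test. The next genes were Npc2, a lysosomal cholesterol carrier (r = 0.955), Mfsd10 (0.943), Cdc14a (0.938), Dync2li1 (0.936) and Clec7a, the beta-glucan receptor dectin-1 of macrophages and dendritic cells (0.933, and 0.905 without the pair). These genes were taken as the most correlated of all, so their r is high by choice.

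**Figure D3:**
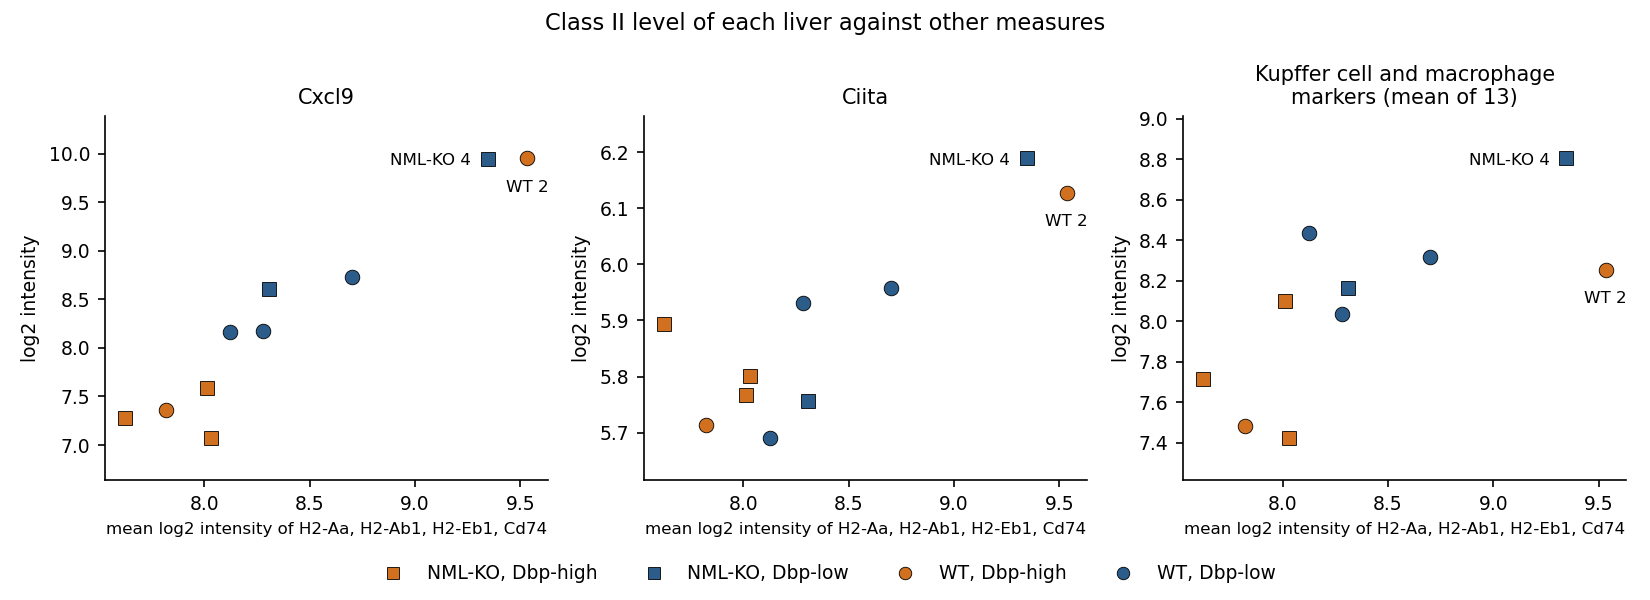
Log2 intensity of Cxcl9, of Ciita and of the average of 13 markers of Kupffer cells and macrophages in each of the 10 livers, against the mean of H2-Aa, H2-Ab1, H2-Eb1 and Cd74. Cxcl9 follows the class II mean closely (r = 0.958), and the macrophage markers less so (r = 0.700). The highest Ciita values are in NML-KO 4 and WT 2, at 6.19 and 6.13.

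Markers of the cells that carry class II molecules moved with these genes in part, and so did those of several other cells. Averaged over 13 markers of Kupffer cells and macrophages, the log2 value ran from 7.42 to 8.80 in NML-KO livers, with NML-KO 4 highest, and from 7.48 to 8.43 in WT livers, with WT 2 at 8.25. This average had r = 0.700 with the class II mean, and 0.643 without NML-KO 4 and WT 2. In Dbp-high against Dbp-low livers 12 of these 13 markers were below 0, with a median of -0.52. Of them 4 passed the test and were lower in Dbp-high livers, where 7.99% of all genes were: Vsig4, C1qb, C1qc and Cd68. Vsig4, a complement receptor of Kupffer cells, differed by -1.24 (SE 0.31, adjusted p = 0.0257) and C1qb by -1.25 (SE 0.28, adjusted p = 0.0161).

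The mean of 11 dendritic cell markers ran from 5.62 to 5.82 in NML-KO livers and from 5.57 to 5.70 in WT livers, with r = 0.618, and -0.068 without the pair. The mean of 10 B cell markers ran from 5.36 to 5.50 in NML-KO livers and from 5.41 to 5.59 in WT livers, with r = 0.616, and 0.448 without the pair. That of 9 monocyte and neutrophil markers was highest in NML-KO 4, at 5.98, against 5.46 to 5.70 in the other livers. WT 2 stood apart in the mean of 6 adipose markers, at 8.44 against 7.13 to 7.33 in the other livers. Car3, 1 of the 6, was not high there, at 14.00 against 13.63 to 14.27 in the other livers. With the class II mean the monocyte and neutrophil list had r = 0.702, the hepatocyte list 0.613 and the adipose list 0.606. Without the pair these were 0.322, -0.38 and 0.126. Sinusoidal endothelium had 0.557, stellate cells and fibroblasts 0.553, T and NK cells 0.420 and cholangiocytes 0.242. An r of this size over 10 livers was thus not particular to cells that carry class II molecules. The part of any of these cells in the class II values was not tested. The hepatocyte markers averaged 13.66 to 13.71 in NML-KO livers and 13.64 to 13.74 in WT livers, and none of these lists had a gene that passed between the genotypes.

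H2-K1 and H2-D1 encode the classical class I heavy chains and are near copies, and probe sets 10444780 and 10450075 each list both of them and a further locus. No value here belongs to H2-K1 or H2-D1 alone. Probe set 10444780 had log2 values of 11.10, 11.01, 11.23, 11.95 and 11.72 in NML-KO livers 1 to 5, against 11.15, 11.47, 11.50, 11.85 and 11.81 in WT livers 1 to 5. Livers 4 and 5 were the highest in both genotypes, and the genotypes overlapped. Probe set 10450075 had 11.37, 11.40, 11.48, 11.89 and 11.71 in NML-KO livers, against 11.67, 11.78, 11.66, 11.71 and 11.78 in WT livers. The genotype differences were -0.16 and -0.15, with an adjusted p of 0.9995 for each (limma over 28815 probe sets).

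Probe set 10444780 was lower in Dbp-high than in Dbp-low livers. It averaged 11.19 ± 0.17 in Dbp-high livers and 11.77 ± 0.17 in Dbp-low livers (SD, n = 5 each), with no overlap. The difference was -0.56 (95% interval -0.81 to -0.32, adjusted p = 0.00797, limma), or 1.48-fold, and with each liver left out the adjusted p stayed at or below 0.0285. Within NML-KO livers it was -0.72 (adjusted p = 0.0537) and within WT livers -0.41 (adjusted p = 0.190). Probe set 10450075, which lists the same genes, differed by -0.19 and did not pass (adjusted p = 0.182). The 2 probe sets thus gave different calls for the same pair of genes. Of all 28815 probe sets 13.1% passed between the Dbp sets, and of the 36 probe sets that list a gene of the H2 family 4 did, a share near that of all probe sets, each of them lower in Dbp-high livers.

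The other 3 were H2-Q10, H2-K2 and a probe set shared by H2-T23 and H2-T-ps. H2-Q10 had 10.17, 10.21 and 10.08 in the Dbp-high NML-KO livers and 10.36 and 10.05 in the Dbp-high WT livers, against 10.52 and 10.56 in the Dbp-low NML-KO livers and 10.68, 10.80 and 10.87 in the Dbp-low WT livers. The sets did not overlap. Within the Dbp-low set all WT livers lay above both NML-KO livers, while within the Dbp-high set the genotypes overlapped. That order was seen in few livers after the values were known, and it was not tested. Its difference was -0.48 (SE 0.075, adjusted p = 0.00295, limma over genes), against -0.25 (SE 0.16) between the genotypes, which did not pass. H2-K2 differed by -0.47 (adjusted p = 0.0110) and the H2-T23 probe set by -0.48 (adjusted p = 0.00835), both by limma over 28815 probe sets. H2-Ea, the alpha chain gene of I-E, was read at 4.61 to 4.78 in NML-KO livers and 4.60 to 4.77 in WT livers, below the 25th percentile of probe set means (4.94). It was singled out after its values were seen. In mice of the H2 b haplotype this gene is not transcribed, and the labels do not give the haplotype.

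**Figure D4:**
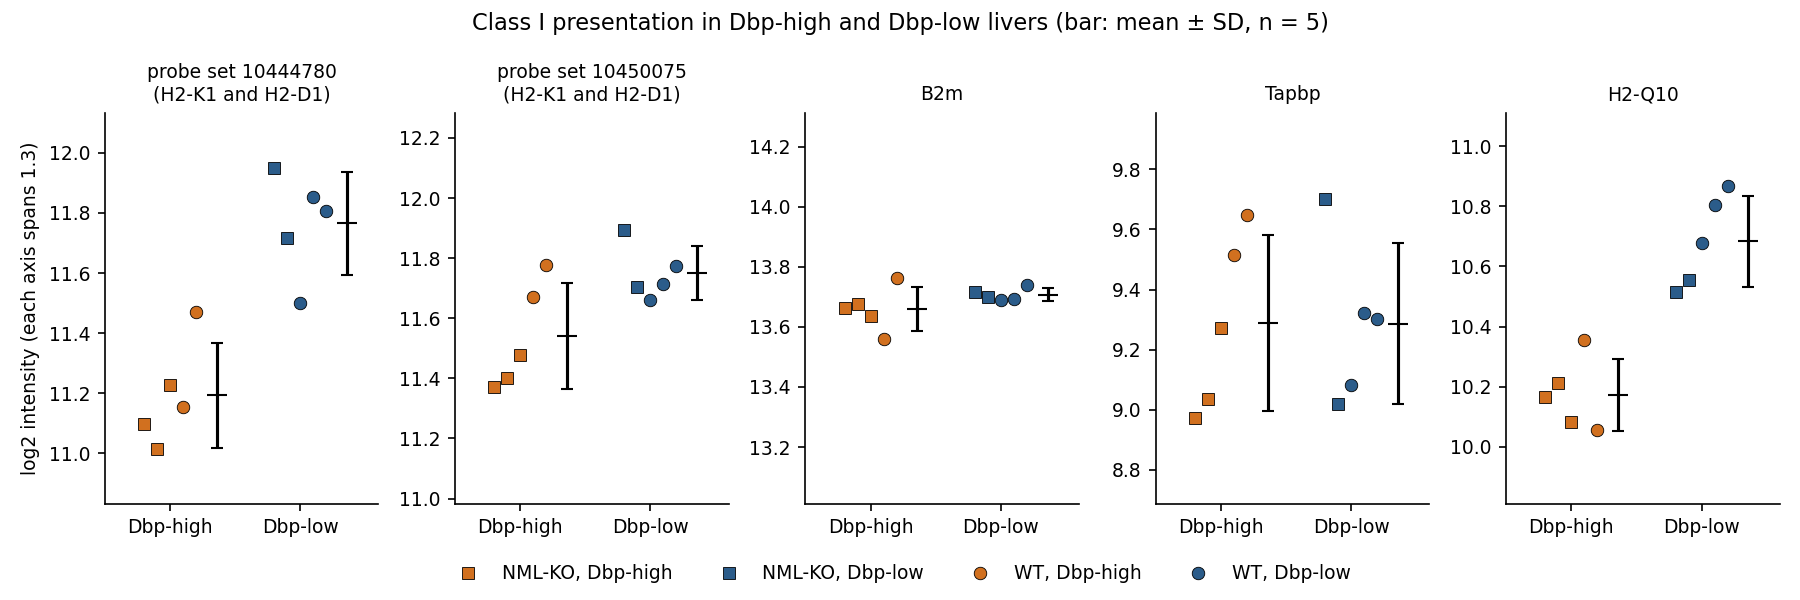
Log2 intensity of the 2 probe sets shared by H2-K1 and H2-D1, and of B2m, Tapbp and H2-Q10, in Dbp-high livers (left) and Dbp-low livers (right), with the mean and SD (n = 5) beside the points and all axes spanning the same log2 range. Probe set 10444780 and H2-Q10 do not overlap between the sets, while B2m stays between 13.56 and 13.76.

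B2m, the light chain common to class I molecules, was the most even of the 8 genes. It had 13.66, 13.68, 13.64, 13.72 and 13.70 in NML-KO livers, against 13.56, 13.76, 13.69, 13.69 and 13.74 in WT livers. The whole range was 0.20 on the log2 scale, or 1.15-fold, and the genotype difference was -0.011 (95% interval -0.12 to 0.10). For Dbp-high against Dbp-low livers it was -0.048 (SE 0.050). Tapbp, or tapasin, which holds class I molecules at the peptide transporter until they are loaded, had 8.97, 9.04, 9.27, 9.70 and 9.02 in NML-KO livers, against 9.52, 9.65, 9.08, 9.32 and 9.30 in WT livers. It differed by -0.17 (-0.51 to 0.16) between the genotypes and by 0.04 (SE 0.16) between the Dbp sets. NML-KO 4 was its highest liver and NML-KO 1, 2 and 5 its lowest. A further 2 probe sets list Tapbp together with Rps3a1, and WT 1 was highest in both, at 10.05 and 9.89. Their r with the class II mean was 0.172 and 0.186. Their genotype differences were -0.27 and -0.26, with an adjusted p of 0.9995 for each (limma over 28815 probe sets). B2m and Tapbp did not follow each other (r = 0.138 over 10 livers). Tapbp spanned 0.73 on the log2 scale and B2m 0.20, so their mean follows Tapbp above all. The genes most like that mean were Hacd4 (r = 0.982), Dnase2a (0.964), Lilra5 (0.953), Sla (0.929), Clec4n (0.919) and Nlrp1c-ps (0.912), again high by choice.

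The wider class II list, with 17 of its 19 genes measured, had 13 genes below 0 in NML-KO against WT, with a median of -0.05, and 0 passed. In Dbp-high against Dbp-low livers 0 passed as well. Beside the genes described above, the smallest p were those of Ctss and Ctsb, lysosomal proteases of which cathepsin S degrades the invariant chain. Ctss differed between the Dbp sets by -0.57 (SE 0.23, adjusted p = 0.151) and Ctsb by -0.28 (SE 0.12, adjusted p = 0.166). Between the genotypes the smallest p beside those genes were of Ifi30, the lysosomal thiol reductase, at -0.19 (SE 0.22), and of Marchf1, a ubiquitin ligase that removes class II molecules from the surface, at 0.08 (SE 0.10).

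The class I list had 14 of 17 genes measured, of which 10 were below 0 between the genotypes, with a median of -0.16, and 0 passed. Tap2, a chain of the peptide transporter, had 7.33, 7.36, 7.43, 7.38 and 7.42 in NML-KO livers, against 7.52, 7.60, 7.49, 7.53 and 7.46 in WT livers. The genotypes did not overlap for Tap2, though NML-KO livers were lower by only 0.14 on average (SE 0.045, adjusted p = 0.999). Tapbpl, a tapasin relative, differed by -0.19 (SE 0.09). Between the Dbp sets 2 genes of the list were lower in Dbp-high livers, where 7.99% of all genes were. They were Calr, the endoplasmic reticulum chaperone calreticulin, at -0.29 (SE 0.052, adjusted p = 0.00584), and Psme1, a proteasome activator subunit, at -0.46 (SE 0.096, adjusted p = 0.0125).

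Of the non-classical class I list 13 of 21 genes were measured, 10 of them below 0 between the genotypes with a median of -0.11, and 0 passed. H2-Q2 differed by -0.16 (SE 0.057) and Cd1d2 by 0.14 (SE 0.079). Between the Dbp sets 3 were lower in Dbp-high livers, against 7.99% of all genes: H2-Q10, Cd1d1, which presents lipids to natural killer T cells, and Azgp1, a secreted class I relative. Cd1d1 differed by -0.47 (SE 0.080, adjusted p = 0.00458) and Azgp1 by -0.41 (SE 0.061, adjusted p = 0.00232).

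Among the transcription factors of the class I and class II genes 14 of 15 were measured, 11 of them below 0 between the genotypes with a median of -0.07, and 0 passed. Rfxank, a subunit of the RFX complex that binds the X box, showed the sharpest split by Dbp set. It had 7.39, 7.30 and 7.34 in the Dbp-high NML-KO livers and 7.46 and 7.25 in the Dbp-high WT livers, against 8.62 and 8.35 in the Dbp-low NML-KO livers and 8.28, 8.51 and 8.32 in the Dbp-low WT livers. The sets were far apart and each was even within itself. The difference was -1.08 (SE 0.077, adjusted p = 4.49e-05), or 2.11-fold, and with each liver left out the adjusted p stayed at or below 0.000292. The other RFX subunits did not share it, with Rfx5 at -0.09 (SE 0.085) and Rfxap at -0.0054 (SE 0.099). WT 2, high in class II chains, had the lowest Rfxank value of all livers, and NML-KO 4 the highest.

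Between the Dbp sets 2 of the 14 transcription factors were lower and 1 was higher in Dbp-high livers, where 12.9% of all genes passed in either direction. Nfya, a subunit of the factor that binds the Y box, was also lower in Dbp-high livers, by 0.24 (SE 0.066, adjusted p = 0.0401). Irf2, an interferon regulatory factor, was higher in Dbp-high livers by 0.64 (SE 0.099, adjusted p = 0.00268). Irf1, which interferon gamma induces, differed by -0.42 (SE 0.19) between the genotypes and Rfx5 by -0.17 (SE 0.086). Nlrc5, the coactivator of class I genes, had 8.37 to 8.79 in NML-KO livers and 8.51 to 8.83 in WT livers, with differences of -0.05 (SE 0.091) between the genotypes and -0.13 (SE 0.086) between the Dbp sets, and passed in neither.

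The interferon gamma list had 15 of 21 genes measured, 13 of them below 0 between the genotypes with a median of -0.16, and 0 passed. Gbp4, a guanylate-binding protein gene, differed by -0.64 (SE 0.31). The mean of the list followed the class II mean (r = 0.900 over 10 livers, 0.635 without NML-KO 4 and WT 2). Both livers were again highest, at 7.94 in NML-KO 4 and 8.05 in WT 2. The list holds Cxcl9, named above as the gene most correlated with the class II mean, so this r is no separate evidence. Ifng was at 5.215 in NML-KO 4 and 5.575 in WT 2, against 5.173 to 5.565 in the other livers. Between the Dbp sets Ifng itself was higher in Dbp-high livers by 0.25 (SE 0.060, adjusted p = 0.0220), on a dim probe set read at 5.17 to 5.58, and Ifngr2, a receptor chain, by 0.49 (SE 0.12, adjusted p = 0.0238). These were 2 of the 15 genes, a share near the 12.9% of all genes that passed in either direction. Both calls depended on single livers. Ifng lost its call without NML-KO 5, WT 1 or WT 2 (adjusted p from 0.0522 to 0.0589), and Ifngr2 without NML-KO 5, WT 1, WT 2, WT 3 or WT 4 (0.0523 to 0.0819).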

How the data were processed

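RNA was extracted with Sepazol and labelled with biotin, per the labels' protocols. The authors deposited intensity values on a linear scale, from 18.4 to 29834, for 28815 probe sets on 10 arrays. The submitters' processing notes name build mm8, and the methods of background correction, normalization and summarization were not stated in the labels. A background left in the values would shrink fold differences of dim genes.

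Probe sets were named through the platform annotation: 21780 had 1 gene symbol, 1605 several and 5430 none. The symbols of 21689 were updated through RefSeq (GRCm38.p6), which served only for names and promoter windows. Of several probe sets of a gene the one with the highest mean was used, which left 19935 genes. Intensities were taken to log2 without a filter.

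Genotype and replicate number come from the sample titles. Each is a separate liver, and no label says more of litters or cages. The most similar pair of arrays had a root mean square difference of 0.165 (log2), so none is a copy. NML-KO was compared with WT, and Dbp-high with Dbp-low livers with genotype as a term, with lmFit and eBayes of limma 3.58.1 (R 4.3.3). A gene was called at a Benjamini-Hochberg adjusted p below 0.05, adjusted over the 19935 genes. Probe sets shared by H2-K1 and H2-D1 were read from the same fit over all 28815 probe sets. So were those shared by Tapbp and Rps3a1, H2-K2, the H2-T23 probe set and the count of H2 family probe sets. Every p-value is limma's. The fits were tested on simulated data with known changes. For NML-KO against WT those data held no Dbp split, so they do not show how that fit fares with the split present.

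The members and all lists of genes and markers were chosen with earlier results of these data known. Beside the members, the text names Rrp8 and Dbp as checks, from each pathway list and contrast the 2 genes with the smallest p, and for each class the 6 genes most correlated with its mean. The class I mean was of B2m and Tapbp only, since H2-K1 and H2-D1 have no probe set of their own. Other genes were named after their values were seen. They were Cd1d1, Nfya, Nlrc5, Rfxap, H2-K2, H2-T23, H2-Ea, Car3, the 4 macrophage markers that passed and Rfx5 between the Dbp sets. Same-numbered livers of the genotypes deviated together for 4 numbers and against each other for number 3. Numbers 1 and 2 are Dbp-high and 4 and 5 Dbp-low in both genotypes, and number 3 is split between the sets, so the correlations run with the sets and number and set can hardly be told apart. No label ties a number to a litter, batch or day, and the numbers were not used as pairs.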

Additional observations from a re-analysis of the deposited data

Results flagged for a closer look

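H2-Aa stood out in NML-KO 4, at a log2 value of 9.17, against 7.66 to 7.99 in the other NML-KO livers. Its gap to the nearest of them was 0.782 of the range of the group, above Dixon's 95% critical value of 0.71 for 5 samples. Such gaps were looked for in 20 groups, the 5 NML-KO and the 5 WT livers for each of the 8 genes and the 2 shared class I probe sets. Chance marks about 1 in 20 groups, and 1 was marked here. NML-KO 4 also had the highest mean of the Kupffer cell and macrophage markers (8.80) and of the monocyte and neutrophil markers (5.98), and their part in the value was not tested.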

How the results depend on the processing

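Array weights, quantile normalization, an offset of 16, median centring, removal of dim genes (Ciita among them), a robust prior with trend, the mean of all probe sets and every probe set left 0 genes called in NML-KO against WT and 2492 to 3152 in Dbp-high against Dbp-low livers. The replicate block left 0 and 2 genes called: H2-Aa differed by 0.0546 between the Dbp sets with it, and probe set 10444780, Rfxank and H2-Q10 lost their calls. With that block only number 3 contrasts the sets, since each other number lies in 1 set in both genotypes, so these losses say little of the size of the differences. Same-numbered livers of the genotypes had correlations of deviations from -0.416 to 0.537, and 2 of 10 arrays correlated best with their own number. Within NML-KO livers 256 and within WT livers 1223 genes were called between the Dbp sets, from fewer arrays. Leaving out 1 liver gave 0 to 1 genes for the genotype (1 without NML-KO 4) and 1625 to 2557 for the Dbp sets (1625 without NML-KO 5), and leaving out NML-KO 4 and WT 2, chosen after seeing the data, gave 1763.

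The median of the 8 genes for the genotype ran from -0.366 to -0.0165 with 1 liver left out, and was 0.355 within Dbp-low livers. For the Dbp sets it ran from -0.589 (without WT 2) to 0.0292 (without NML-KO 4), and was -0.726 within NML-KO livers. Differences that changed sign are those near 0 or those that rest on WT 2 or NML-KO 4. Within Dbp-low livers the genotype differences were 0.57 for H2-Aa, 0.42 for H2-Ab1, 0.40 for H2-Eb1, 0.44 for Cd74, 0.31 for H2-DMa, 0.11 for Ciita, 0.00069 for B2m, 0.13 for Tapbp, 0.11 for probe set 10444780 and 0.083 for 10450075. With array weights they were 0.078 for H2-Aa and 0.017 for Ciita, and with the set as a term 0.0067 for Ciita. With 1 liver left out they ran from -0.31 to 0.22 for H2-Aa, -0.42 to 0.068 for H2-Eb1, -0.079 to 0.058 for Ciita and -0.043 to 0.0077 for B2m. Dbp-high against Dbp-low within WT livers gave 0.39 for H2-Aa, 0.27 for H2-Ab1, 0.50 for H2-Eb1, 0.068 for Cd74, 0.060 for Ciita and 0.0071 for probe set 10450075. It gave -0.27 for Tapbp within NML-KO livers and 0.047 for Ciita with array weights. With 1 liver left out these differences ran from -0.65 to 0.16 for H2-Aa, -0.53 to 0.22 for H2-Eb1, -0.15 to 0.062 for Ciita and -0.057 to 0.24 for Tapbp. None of these reversed values passed the test, and the causes were not tested.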
